A study of Mus musculus with 37 samples.

Results

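The wild-type (WT) mouse mammary gland at day 10 of pregnancy (P10) was compared with the WT gland of nulliparous females (P0). The comparison was chosen by the array titles alone: the 3 arrays titled as WT glands at P10 and the 4 titled as WT glands at P0, 7 of the 37 arrays in the series. It was read across 16865 genes on Affymetrix arrays. The whole series covers PTP1B WT and PTP1B knockout (KO) glands of nulliparous females and of females at days 3, 7, 10 and 15 of pregnancy. PTP1B is a tyrosine phosphatase encoded by Ptpn1, and the P10 and P0 groups described here both carry the intact gene. All mice were of the FVB strain, onto which the knockout had been crossed for at least 7 generations. The labels give an age of 12 weeks at mating for all females, with none of its own for P0, and the day of pregnancy was counted from the vaginal plug. The P0 females had a vaginal plug after a night with a male and were taken to be in oestrus, so that P0 stands for oestrus and not for an average of the cycle. No group was treated. Whole-gland total RNA (100 ng per array) was amplified and biotin-labelled. The labels do not say whether replicates of a group are separate animals, so that every p-value below measures the spread between arrays, part of which may be technical.

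The virgin mammary gland is a sparse tree of epithelial ducts in a pad of white fat. In early pregnancy progesterone acts on hormone-sensing luminal cells, which carry the oestrogen and progesterone receptors and signal to their neighbours through RANKL and WNT4, and the neighbours divide and build alveoli. Prolactin, acting through JAK2 and STAT5 and with the transcription factor ELF5, then turns alveolar cells towards secretion, first of caseins and later of whey proteins and milk fat. A whole gland holds all of these cells together with fat, vessels, connective tissue and immune cells. In such bulk samples fewer cells of a type and less RNA per cell cannot be told apart.

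Replicate arrays correlated at 0.986 to 0.991 among the P10 arrays and at 0.973 to 0.991 among the P0 arrays (Pearson, over all probe sets), and the medians of the 7 arrays lay between 6.533 and 6.603 on the log2 scale. Ptpn1 read 8.94, 8.65 and 8.75 in the P10 arrays, against 8.70, 8.75, 9.06 and 8.61 in the P0 arrays, where 18 KO arrays lay between 5.36 and 6.49. A 19th array labelled KO, at P15, read 8.68 and enters the fits below through the shared estimate of spread. The labelled tissue carried its defining markers, beside array medians of 6.533 to 6.603: the epithelial keratin gene Krt8 averaged 11.55 ± 0.41 at P10 and 11.59 ± 0.61 at P0, and the fat hormone gene Adipoq 12.45 ± 0.12 at P10 and 12.52 ± 0.15 at P0 (log2, SD). Some P0 arrays stood apart in single scores. P0 replicate 4 had a skeletal muscle score of 4.80, where the other 6 arrays lay between -0.52 and 0.33; a score is the mean level of a marker list, each gene centred on its mean over all 37 arrays. P0 replicate 3 had a T lymphocyte score of 0.88, where the other 6 lay between -0.64 and -0.11. P0 replicate 2 had the highest pan-epithelial score of the 7 arrays, 0.33, and the highest cell division score of the P0 arrays, -0.30 against -1.60, -1.49 and -0.92 in the others.

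**Figure D1:**
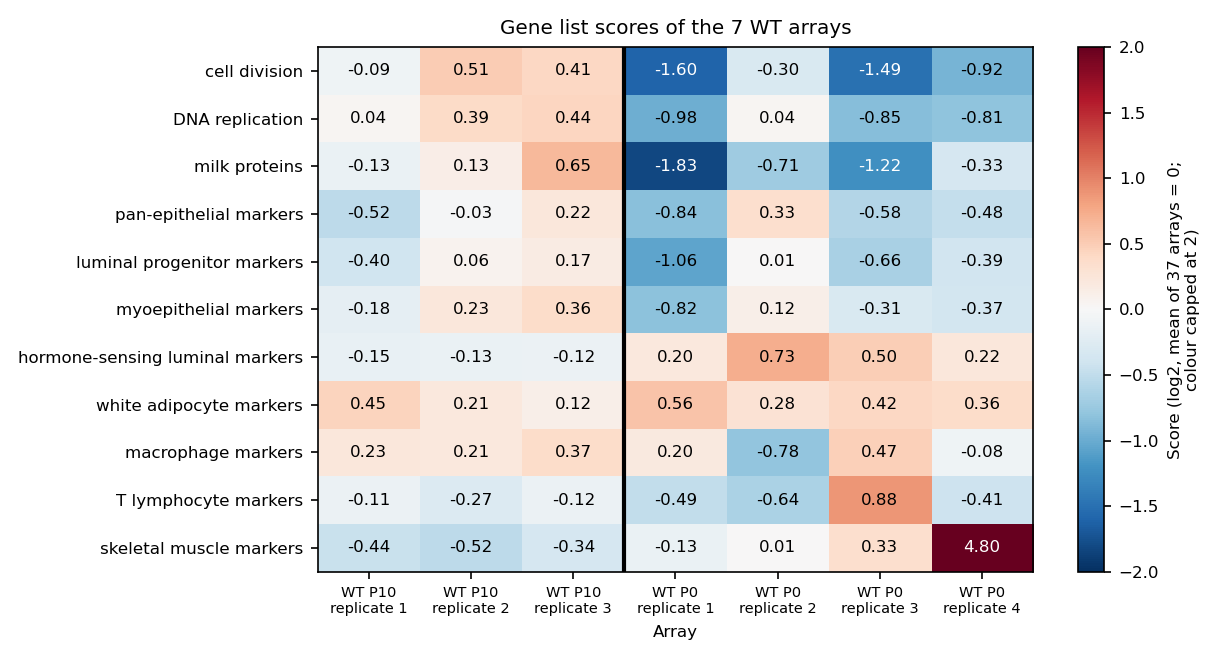
Scores of 11 gene lists (rows) in the 3 P10 arrays and the 4 P0 arrays (columns, separated by the black line), in log2 units around the mean of all 37 arrays, with the colour capped at 2. The cell division and milk protein scores of all 3 P10 arrays exceed those of all 4 P0 arrays, the hormone-sensing luminal scores of all 3 P10 arrays lie below those of all 4 P0 arrays, and the muscle score of 4.80 is that of P0 replicate 4.

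At P10, 3603 of the 16865 genes (21.4%) differed from P0 at an adjusted p below 0.05 in limma, which compares group means on the log2 scale with a spread shared by all 37 arrays. Of these, 1965 genes (11.7%) were higher at P10 and 1638 (9.71%) were lower, and the median difference over all tested genes was -0.02. These shares are the background for the gene lists below. Large changes were mostly rises: among called genes, 320 rose by at least 1 on the log2 scale (1.9% of genes tested) and 77 fell by at least 1 (0.457%). For 4448 genes (26.4%) the 3 P10 arrays did not overlap the 4 P0 arrays, and 2732 genes (16.2%) met both conditions. The number of calls depended on single arrays and on the arrays that estimate the spread. It was 1610 without P10 replicate 2, 2406 without P0 replicate 4, the array with the muscle score, and 5036 without P0 replicate 2. With the 7 arrays fitted alone 447 genes were called, 443 of them among the 3603, and genes named below that were called there too are said to hold in the 7 arrays alone.

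The 12 largest rises and the 12 largest falls were taken from called genes whose P10 and P0 arrays did not overlap. A gap between the groups of these genes was therefore part of the choice. The largest rises at P10 included genes of milk and of its secretion. Glycam1, a mucin-like glycoprotein of milk, stood at 11.86, 12.21 and 12.60 in the P10 arrays, against 5.30, 6.45, 9.58 and 8.91 in the P0 arrays. The P0 arrays themselves spanned more than 4 log2 units. The difference was 4.66 ± 1.12 (log2, SE; 25.3-fold; adjusted p = 0.00464). Olah, the thioesterase that releases medium-chain fatty acids for milk fat, read 9.04, 9.79 and 10.62 at P10 and 4.93, 6.52, 5.17 and 7.15 at P0, a difference of 3.87 ± 0.57 (14.7-fold; adjusted p = 3.59e-05). Rspo1, an R-spondin that strengthens WNT signalling, read 10.12, 10.70 and 10.82 at P10 and 6.48, 8.30, 6.26 and 7.03 at P0, a difference of 3.53 ± 0.52 (11.6-fold; adjusted p = 3.48e-05). P10 replicate 1 was the lowest P10 array for each of these 3 genes.

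Gap junction and transport genes followed. The connexin gene Gjb2 read 10.24, 10.89 and 11.24 at P10 and 6.30, 8.18, 6.22 and 8.25 at P0 (3.56 ± 0.56; adjusted p = 9.78e-05), and its neighbour in the family Gjb6 read 8.13, 8.81 and 9.56 at P10 and 5.77, 5.48, 5.25 and 5.75 at P0 (3.27 ± 0.48; adjusted p = 3.21e-05). Pigr, the receptor that carries polymeric immunoglobulin across the epithelium into milk, read 8.23, 8.58 and 9.60 at P10, against 5.60, 5.97, 5.66 and 6.36 at P0 (2.90 ± 0.35; 7.47-fold; adjusted p = 2.85e-06). For each of these 3 genes the lowest P10 array was again replicate 1. The remaining large rises were those of Timd2, a ferritin receptor, by 2.95, of Wap, the major whey protein of mouse milk, by 2.78, of Bcl2l15, a member of the BCL2 family, by 2.58, of Rgs16, a regulator of G-protein signalling, by 2.23, of Capn6, a calpain without protease activity, by 2.14, and of Atp13a4, a P-type cation ATPase, by 2.12. Wap lost its call without P10 replicate 3 (2.19, adjusted p = 0.0545). In the 7 arrays alone, 10 of the 12 largest rises held, all but Glycam1 (adjusted p = 0.0513) and Wap (adjusted p = 0.0553).

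Of the largest falls 3 were those of Ido1, Clca1 and Clic6. Ido1, the enzyme that opens the tryptophan ring on the way to kynurenine, read 4.88, 4.47 and 4.91 at P10, against 9.64, 9.99, 10.87 and 6.67 at P0, a difference of -4.54 ± 0.53 (23.2-fold lower at P10; adjusted p = 1.68e-06). P0 replicate 4 was the lowest P0 array. The P10 values lay below 4.96, the level of the filter on low values, where array values may not follow RNA level, so that the fold is that of the array values and may understate the difference. Clca1, a secreted regulator of chloride channels, read 5.44, 5.53 and 5.82 at P10 and 8.54, 10.97, 8.93 and 7.15 at P0 (-3.30 ± 0.41; adjusted p = 3.9e-06). Clic6, of the intracellular chloride channel family, read 5.13, 5.24 and 5.09 at P10 and 7.57, 7.68, 8.37 and 8.10 at P0 (-2.78 ± 0.27; adjusted p = 1.76e-07). The P10 arrays of these 3 genes lay close together, and nearly all of the spread was within P0.

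Further falls were those of Itih2, an inter-alpha-trypsin inhibitor heavy chain (-2.71), Cdcp3 (-2.69), R3hdml (-2.34), Ly6d, a surface protein of the Ly6 family (-2.25), and Ang5, a ribonuclease of the angiogenin family (-2.24). Prg4, the lubricating proteoglycan lubricin, differed by -2.07, Crym, which binds thyroid hormone in the cytosol, by -2.05, Fgg, the fibrinogen gamma chain, by -1.91, and Foxa1 by -1.90. Foxa1 opens chromatin for the oestrogen receptor in luminal cells. It read 7.63, 7.87 and 7.83 at P10 and 9.28, 10.29, 9.38 and 9.76 at P0, with a gap of more than 1 log2 unit between the groups (adjusted p = 1.37e-06). Prg4 lost its call without P0 replicate 3 (-1.77, adjusted p = 0.0516) and without P10 replicate 2 (-1.996, adjusted p = 0.0599). In the 7 arrays alone, 8 of the 12 largest falls held, all but Clca1, Cdcp3, Prg4 and Fgg.

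**Figure D2:**
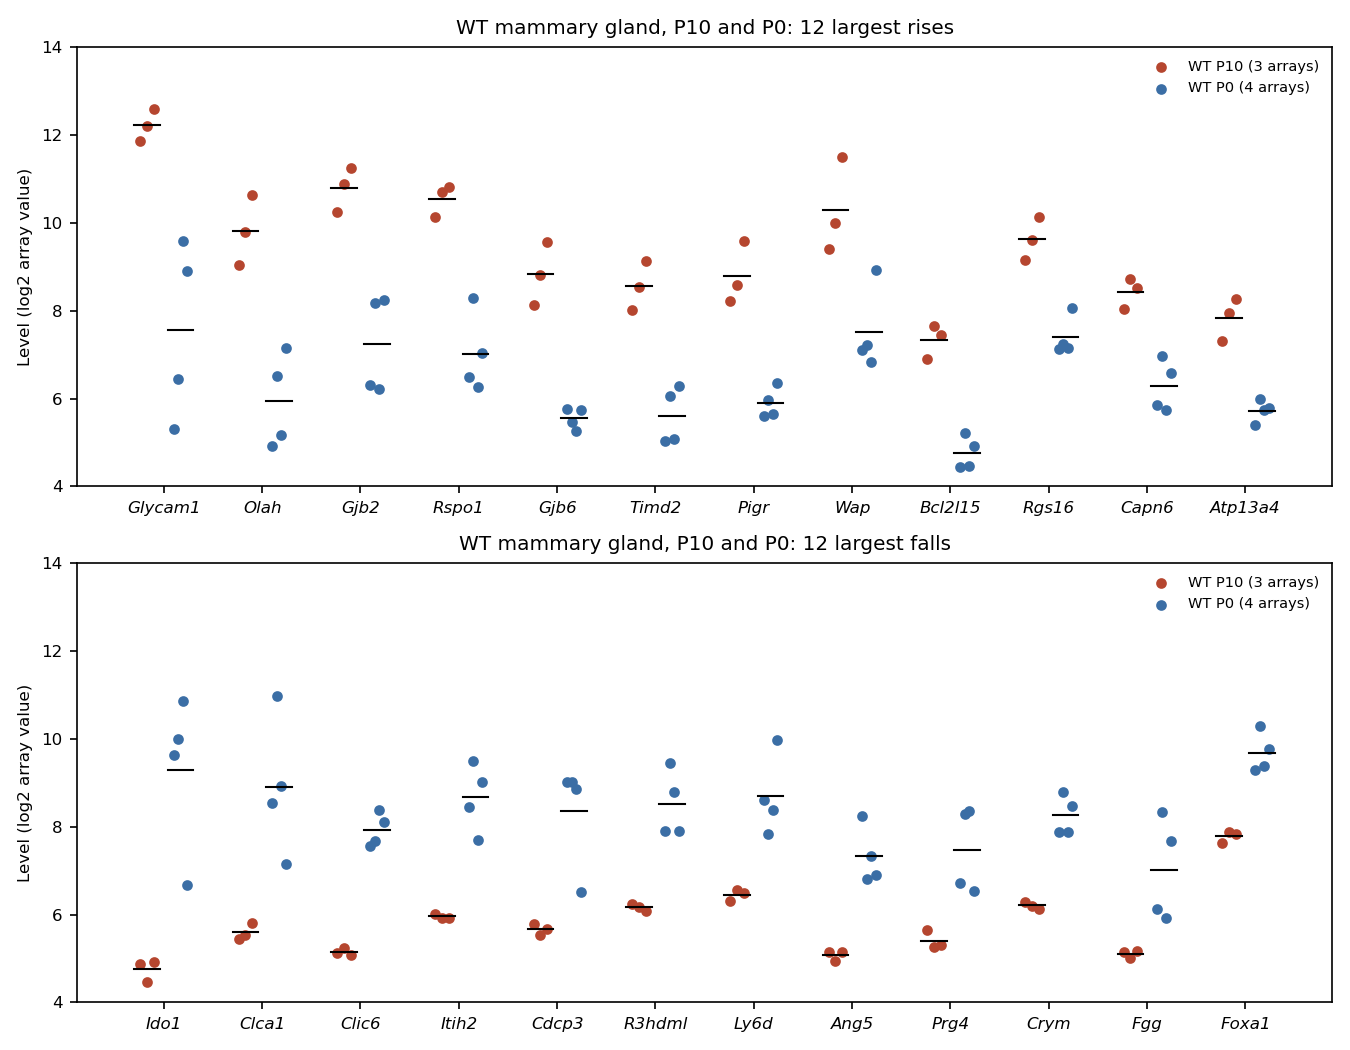
Levels (log2 array value) of the 12 genes with the largest rises (top) and the 12 with the largest falls (bottom) among called genes whose groups did not overlap. Red points are the 3 P10 arrays, blue points the 4 P0 arrays and black bars the group means, with the P0 values of Glycam1 spread from 5.30 to 9.58 and the P10 values of Ido1 between 4.47 and 4.91.

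The milk protein list had 14 genes measured, of which 6 rose and none fell, with a median difference of 1.10 beside -0.02 over all tested genes. The 6 were Glycam1, Pigr, Wap, Wfdc18, Csn2 and Csn1s1. Wfdc18, an abundant small whey-type protein, read 12.35, 12.55 and 12.55 at P10 and 9.70, 11.90, 10.17 and 11.34 at P0 (1.71 ± 0.31; adjusted p = 0.000428). The beta-casein gene Csn2 was already strongly expressed before pregnancy: it read 12.89, 13.01 and 13.20 at P10, against 10.03, 12.49, 10.63 and 12.73 at P0, and rose by 1.56 ± 0.52 (adjusted p = 0.0298). Csn1s1, the alpha-s1-casein gene, read 12.33, 12.40 and 12.55 at P10 and 10.19, 12.11, 10.82 and 12.37 at P0, where P0 replicate 4 reached into the range of P10 (1.05 ± 0.36; adjusted p = 0.0337). P0 replicates 2 and 4 were thus the casein-rich P0 arrays, and replicates 1 and 3 the casein-poor ones.

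Both casein calls rested on the P0 arrays with little casein and on the number of P10 arrays. Csn2 fell short of the threshold without P0 replicate 1 (1.09, adjusted p = 0.13), P0 replicate 3 (1.28, adjusted p = 0.0993), P10 replicate 1 (1.64, adjusted p = 0.0549), P10 replicate 2 (1.58, adjusted p = 0.0863) or P10 replicate 3 (1.48, adjusted p = 0.0835). Csn1s1 did so without the same 5 arrays, in their order with differences of 0.66, 0.87, 1.10, 1.07 and 0.99 (adjusted p = 0.157, 0.108, 0.0603, 0.0915 and 0.0934). The other caseins did not pass the test: Csn1s2a differed by 1.55 (adjusted p = 0.0673), Csn1s2b by 0.35 and the kappa-casein gene Csn3 by 0.23. Cel, the bile salt-stimulated lipase of milk, differed by 1.14 (adjusted p = 0.168) and the transferrin gene Trf by 0.04. Ltf, the iron-binding lactoferrin, ran the other way without passing the test, with 8.04, 8.50 and 8.94 at P10, against 9.04, 10.37, 10.33 and 9.61 at P0 (-1.34, adjusted p = 0.0538), and its groups did not overlap. Ltf was called lower without P0 replicate 1 (-1.61, adjusted p = 0.037). With the pan-epithelial marker score as a covariate, a fit added after the data were seen, the list had 4 higher, 1 lower and a median of 0.72: Csn2 (adjusted p = 0.0793) and Csn1s1 (adjusted p = 0.0904) lost their calls, and Ltf was called lower (-1.63, adjusted p = 0.0224). The list's count of rises lay between 3 (without P10 replicate 3) and 7 (without P0 replicate 2 or P0 replicate 4), and 1 gene, Pigr, held in the 7 arrays alone.

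Milk protein promoters are the textbook targets of STAT5, which binds the palindrome TTCNNNGAA, where N is any base. RefSeq promoter windows from 250 bases before to 50 after the gene's start (build GRCm38.p6) were matched for all 6 milk protein genes that rose. Of the 6, 4 (66.7%) held this motif, which reads the same on both strands. The share was 8.47% of the windows of all 27025 genes and 7.12% of those of the 13255 tested genes with a window. The windows of Csn1s1, Csn2 and Glycam1 are shown because their match lies before the start. The match, in capitals, begins 100 bases before the start in Csn1s1 (chr5:87665958-87666257, plus strand), 93 before it in Csn2 (chr5:87699376-87699675, minus strand) and 145 before it in Glycam1 (chr15:103565032-103565331, minus strand). A match is a run of letters and no measurement of binding. Milk protein genes that were not called were not scanned, so that whether the motif goes with the rise at P10 was not tested. The fourth match, in Pigr, begins 39 bases after the start.
Csn1s1: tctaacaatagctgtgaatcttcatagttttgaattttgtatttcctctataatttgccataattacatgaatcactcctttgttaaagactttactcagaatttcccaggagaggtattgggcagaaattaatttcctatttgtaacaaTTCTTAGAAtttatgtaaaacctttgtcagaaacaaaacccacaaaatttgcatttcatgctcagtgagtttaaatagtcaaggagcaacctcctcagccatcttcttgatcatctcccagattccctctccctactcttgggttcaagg
Csn2: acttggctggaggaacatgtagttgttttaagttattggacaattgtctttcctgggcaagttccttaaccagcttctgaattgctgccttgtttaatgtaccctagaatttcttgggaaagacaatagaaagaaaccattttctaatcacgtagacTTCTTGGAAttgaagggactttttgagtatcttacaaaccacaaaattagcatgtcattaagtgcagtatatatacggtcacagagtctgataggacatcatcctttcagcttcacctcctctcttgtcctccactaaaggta
Glycam1: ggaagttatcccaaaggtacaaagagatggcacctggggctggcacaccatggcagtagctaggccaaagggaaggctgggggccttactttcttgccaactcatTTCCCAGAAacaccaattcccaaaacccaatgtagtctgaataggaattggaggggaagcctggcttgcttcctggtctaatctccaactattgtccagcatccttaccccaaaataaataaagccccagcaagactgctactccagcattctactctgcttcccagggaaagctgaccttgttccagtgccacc

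Around the milk proteins few genes of the secretory programme differed at P10. Of 12 genes of the milk fat globule and its secretion, 2 rose and none fell, with a median of -0.04. This count of rises is near the 11.7% of all genes that were higher. Both were mucins of the globule membrane. Muc15 read 11.28, 11.66 and 11.84 at P10 and 7.995, 11.12, 8.92 and 10.46 at P0 (1.97 ± 0.41; adjusted p = 0.00148), and Muc1 read 8.76, 9.42 and 9.75 at P10 and 7.00, 8.88, 7.81 and 8.46 at P0 (1.27 ± 0.30; adjusted p = 0.00415), where P10 replicate 1 lay below P0 replicate 2. The genes that make the globule did not pass the test, with differences of -0.04 for butyrophilin, Btn1a1, of 0.11 for xanthine dehydrogenase, Xdh, and of -0.04 for the lipid droplet coat, Plin2. In the 7 arrays alone neither mucin held (adjusted p = 0.119 and 0.117).

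Fatty acid and triglyceride synthesis had 24 genes measured, of which 4 rose and none fell (median 0.14), also near the 11.7% of all genes that were higher. Olah stood alone in size, and the next, the desaturases Fads2 and Fads1 and the elongase Elovl1, differed by 0.67, 0.36 and 0.37. These 3 lost their calls without P10 replicate 3, Fads2 and Elovl1 also without P0 replicate 1 or P10 replicate 2, and Elovl1 also without P0 replicate 4. Over the 7 fits that left out 1 array Fads2 stayed between 0.47 and 0.87 (highest adjusted p = 0.0632), Fads1 between 0.33 and 0.40 (0.0555) and Elovl1 between 0.27 and 0.52 (0.172). The count of rises was 1 without P10 replicate 3 and 2 without P0 replicate 1 or P10 replicate 2. The core enzymes did not pass the test: fatty acid synthase, Fasn, differed by 0.12 and acetyl-CoA carboxylase, Acaca, by 0.17. Of 20 genes of cholesterol synthesis 1 rose, Hsd17b7 (0.54 ± 0.17; adjusted p = 0.0273), a call lost without P0 replicate 1, P0 replicate 4, P10 replicate 2 or P10 replicate 3 (highest adjusted p = 0.105). Of 22 genes of protein folding and export in the endoplasmic reticulum none rose and 2 fell, the folding helper Dnajb9 by 0.43 (adjusted p = 0.0461) and the quality control gene Herpud1 by 0.45 (adjusted p = 0.0109). Herpud1 lost its call without P0 replicate 1 or P10 replicate 3 (highest adjusted p = 0.0658), and Dnajb9 without any 1 of P0 replicates 1, 3 and 4 and P10 replicates 2 and 3 (highest adjusted p = 0.169).

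Of 12 genes of the progesterone and RANKL axis 7 rose and 2, the receptor gene Pgr and Wnt4, fell (median 0.61). Pgr was lower at P10, at 6.93, 7.14 and 7.04, against 7.88, 9.25, 8.62 and 6.94 at P0 (-1.14 ± 0.31; adjusted p = 0.0104). P0 replicate 4 had as little Pgr as the P10 arrays, and the other 3 P0 arrays had more than any of them. Wnt4, the WNT ligand that progesterone induces, read 7.88, 8.06 and 8.004 at P10 and 8.46, 8.77, 8.70 and 8.32 at P0 (-0.58 ± 0.15; adjusted p = 0.00788).

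The RANKL gene Tnfsf11 was higher at P10, at 8.60, 9.22 and 8.66, against 8.02, 7.98, 8.30 and 8.33 at P0 (0.67 ± 0.17; adjusted p = 0.00667). The call was lost without P10 replicate 2, the highest array (0.47, adjusted p = 0.0892). Its receptor gene Tnfrsf11a differed by 0.60 (adjusted p = 0.018), with P0 replicate 2 inside the range of P10, and lost its call without any 1 of P0 replicates 1 and 4 and P10 replicates 2 and 3 (0.42 to 0.83 over the fits, highest adjusted p = 0.133). Beyond RANKL, Rspo1 rose as above, and Id4, an inhibitor of helix-loop-helix factors, read 9.06, 9.53 and 9.38 at P10 and 7.26, 8.54, 7.92 and 7.92 at P0 (1.42 ± 0.26; adjusted p = 0.000423).

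Adamts18, a secreted metalloprotease of the basal compartment, read 8.29, 8.68 and 8.35 at P10 and 6.50, 6.95, 6.89 and 6.84 at P0 (1.64 ± 0.19; adjusted p = 1.68e-06). Its P0 arrays lay close together, and the groups did not overlap. Ccnd1, the cyclin that drives entry into the cell cycle, differed by 1.18 ± 0.31 (adjusted p = 0.00806), with P0 replicate 2, at 11.23, above P10 replicate 1, at 10.90. Of the 9 called genes Rspo1, Adamts18 and Id4 held in the 7 arrays alone.

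Markers of the hormone-sensing luminal cell, 10 genes, had 4 that fell and 1 that rose (median -0.37). The 4 were Foxa1, Pgr, Wnt4 and the surface protein gene Prom1, and all 4 were called in each of the 7 fits that left out 1 array. Prom1 read 6.08, 6.17 and 6.24 at P10 and 7.17, 8.39, 7.84 and 7.51 at P0 (-1.56 ± 0.21; adjusted p = 9.3e-06), and its groups lay nearly 1 log2 unit apart. The oestrogen receptor gene Esr1 did not pass the test (-0.17, adjusted p = 0.494). The gene that rose was Tnfsf11. With the pan-epithelial score as a covariate, a fit added after the data were seen, 5 markers were lower and 1 was higher.

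Among 17 regulators of the alveolar fate 6 were higher and none was lower with the probe sets used (median 0.21). Elf5, the alveolar transcription factor, read 9.95, 10.58 and 11.04 at P10 and 7.94, 10.13, 8.42 and 9.40 at P0 (1.55 ± 0.35; adjusted p = 0.00299), where P0 replicate 2 lay above P10 replicate 1. The related factor gene Ehf rose by 1.66 ± 0.31 (adjusted p = 0.000697) and Id2, needed for alveolar growth in mice, by 1.06 ± 0.21 (adjusted p = 0.00094), neither with an overlap. Erbb4, the neuregulin receptor, read 7.12, 7.79 and 7.93 at P10 and 5.97, 6.25, 6.28 and 6.04 at P0 (1.48 ± 0.29; adjusted p = 0.00106), and it alone of the 6 held in the 7 arrays alone. Stat5a differed by 0.41 (adjusted p = 0.00822) and its feedback inhibitor gene Socs2 by 0.55 (adjusted p = 0.0164), and both calls could be lost with 1 array. That of Stat5a went without P10 replicate 2 or 3 (highest adjusted p = 0.0632), and that of Socs2 without any 1 of P0 replicates 1 and 4 and P10 replicates 1 and 2 (highest adjusted p = 0.0623). Another Socs2 probe set, with a mean level of 8.06, differed by 0.41 and did not pass the test (limma over all probe sets, adjusted p = 0.0798). In the same fit another Socs3 probe set, with a mean level of 5.90, differed by -0.49 (adjusted p = 0.011). The Socs3 probe set used differed by -0.24. Another Nfib probe set, with a mean level of 9.86, differed by 0.61 (adjusted p = 0.00307), where the one used differed by 0.24. Jak2 differed by 0.20 and Stat5b by 0.21, and neither passed the test. With the pan-epithelial score as a covariate, a fit added after the data were seen, 6 of the list were higher and 1 was lower.

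Among 27 ligand and receptor genes of the ERBB, IGF and FGF families 4 rose and 2 fell (median 0.04). These counts are near the shares over all genes, 11.7% higher and 9.71% lower, so that the values below are those of single genes. All 6 were called in each fit that left out 1 array. On the ERBB side a receptor and its ligand rose: Erbb4, as above, and Nrg1, encoding neuregulin, which read 7.17, 7.32 and 7.29 at P10 and 5.68, 6.18, 6.01 and 6.09 at P0 (1.27 ± 0.28; adjusted p = 0.00256). Tgfa, an EGF receptor ligand, was lower by 0.47 (adjusted p = 0.00212). On the IGF side Igf2 read 8.96, 9.01 and 8.74 at P10 and 7.42, 7.37, 7.67 and 7.67 at P0 (1.37 ± 0.23; adjusted p = 0.000243), with more than 1 log2 unit between the groups, and the binding protein gene Igfbp2 rose by 1.28 ± 0.24 (adjusted p = 0.000583). Fgfr2, the receptor for stromal FGFs in ductal growth, read 8.67, 8.96 and 8.74 at P10 and 9.93, 10.85, 9.26 and 9.99 at P0 (-1.22 ± 0.22; adjusted p = 0.00034). The other 21 genes, among them Egfr, Igf1 and Igf1r, did not pass the test, and Erbb4, Igf2 and Nrg1 held in the 7 arrays alone.

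Genes of cell division formed the most uniform group: 25 of 27 rose and none fell, with a median difference of 1.26, and for 22 of the 27 every P10 array exceeded every P0 array, as for 12.5% of all genes. Bub1, a spindle checkpoint kinase, read 7.62, 8.39 and 8.19 at P10 and 5.28, 7.14, 5.17 and 6.33 at P0 (2.08 ± 0.50; 4.24-fold; adjusted p = 0.0045). Kif11, the motor that separates the spindle poles, read 8.44, 9.10 and 9.13 at P10 and 6.15, 7.84, 6.21 and 7.11 at P0 (2.06 ± 0.51; adjusted p = 0.00565). P0 replicate 2 was the highest P0 array for both genes and P0 replicates 1 and 3 the lowest. Mki67, the classical marker of proliferating cells, read 9.13, 9.67 and 9.85 at P10 and 7.07, 8.92, 7.28 and 8.002 at P0 (1.73 ± 0.44; adjusted p = 0.00714), and P10 replicate 1 was only a little above P0 replicate 2. The mitotic kinase gene Cdk1 rose by 1.70 ± 0.41 and Top2a, the topoisomerase that untangles replicated DNA, by 1.68 ± 0.45. Aurka and Anln did not pass the test (0.89 and 0.81, adjusted p = 0.0598 and 0.0704).

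DNA replication differed in the same direction by less: 17 of 26 genes rose and none fell (median 0.86). Prim1, a primase subunit, read 7.55, 8.24 and 8.33 at P10 and 5.84, 7.24, 5.96 and 6.29 at P0 (1.71 ± 0.37; adjusted p = 0.0022). Gins1, of the replicative helicase, rose by 1.24 ± 0.27 and E2f8, an E2F-family factor, by 1.77 ± 0.43. All 6 tested subunits of the MCM helicase were higher on average, by 0.84 (Mcm4) to 1.495 (Mcm6), and 5 of them passed the test, while Mcm5 (1.01, adjusted p = 0.0508) did not. P0 replicate 2 lay inside the range of P10 for the 5 that passed. The calls of both lists moved with the arrays in the fit. Cell division had 14 called genes without P0 replicate 1, 14 without P0 replicate 3, 12 without P10 replicate 3, 7 without P10 replicate 2, 21 without P0 replicate 4, 24 without P10 replicate 1 and 27 without P0 replicate 2. DNA replication had 4 called genes without P0 replicate 1, 7 without P0 replicate 3, 7 without P0 replicate 4, 4 without P10 replicate 2, 3 without P10 replicate 3, 15 without P10 replicate 1 and 21 without P0 replicate 2. The median of cell division stayed between 1.12 and 1.48 and that of DNA replication between 0.73 and 1.16 over these fits. In the 7 arrays alone 6 and 4 genes were called.

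Within each group the pan-epithelial score ran largely with these lists. It was -0.52, -0.03 and 0.22 in the P10 arrays and -0.84, 0.33, -0.58 and -0.48 in the P0 arrays. Between the groups the pan-epithelial list had a median difference of 0.35. P0 replicate 2, with a cell division score of -0.30 where the P10 arrays had -0.09, 0.51 and 0.41, had the highest pan-epithelial score. With that score as a covariate, the fit added after the data were seen, 15 of 27 cell division genes (median 0.94) and 7 of 26 DNA replication genes (median 0.59) were called, all of them higher. How much of the remaining difference goes with other cell types was not tested.

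Promoters of cell division genes often carry the CCAAT box and the cell cycle homology element TTTGAA. Among the 25 cell division genes that rose, 20 had a RefSeq window, and 15 of the 20 (75%) held CCAAT and 15 (75%) TTTGAA on either strand, beside 37.9% and 18.1% of all 27025 genes. Among the 17 DNA replication genes that rose, 14 had a window, and 10 (71.4%) held CCAAT and 2 (14.3%) TTTGAA. Of the 13255 tested genes with a window, 37.7% held CCAAT and 12.7% TTTGAA, so that the TTTGAA share of the DNA replication genes was near this background. The windows of Cdk1 (chr10:69352863-69353162, minus strand), with 3 CCAAT and 2 TTTGAA matches, and of Kif11 (chr19:37376132-37376431, plus strand), with 1 of each, are shown as examples of a promoter that holds both. Capitals mark the matches, written ATTGG or TTCAAA where they lie on the opposite strand, and no 2 matches overlap.
Cdk1: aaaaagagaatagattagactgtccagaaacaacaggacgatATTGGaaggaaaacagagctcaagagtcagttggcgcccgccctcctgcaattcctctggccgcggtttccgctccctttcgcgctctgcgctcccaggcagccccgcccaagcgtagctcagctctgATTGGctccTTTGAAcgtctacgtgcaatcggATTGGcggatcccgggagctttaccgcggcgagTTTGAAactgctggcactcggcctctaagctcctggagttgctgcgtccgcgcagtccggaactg
Kif11: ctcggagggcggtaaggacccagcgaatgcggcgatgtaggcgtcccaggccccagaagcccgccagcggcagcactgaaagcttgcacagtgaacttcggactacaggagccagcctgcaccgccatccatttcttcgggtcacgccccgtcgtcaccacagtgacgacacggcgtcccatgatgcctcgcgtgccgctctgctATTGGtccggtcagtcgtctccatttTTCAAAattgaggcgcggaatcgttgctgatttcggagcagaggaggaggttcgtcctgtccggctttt

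**Figure D3:**
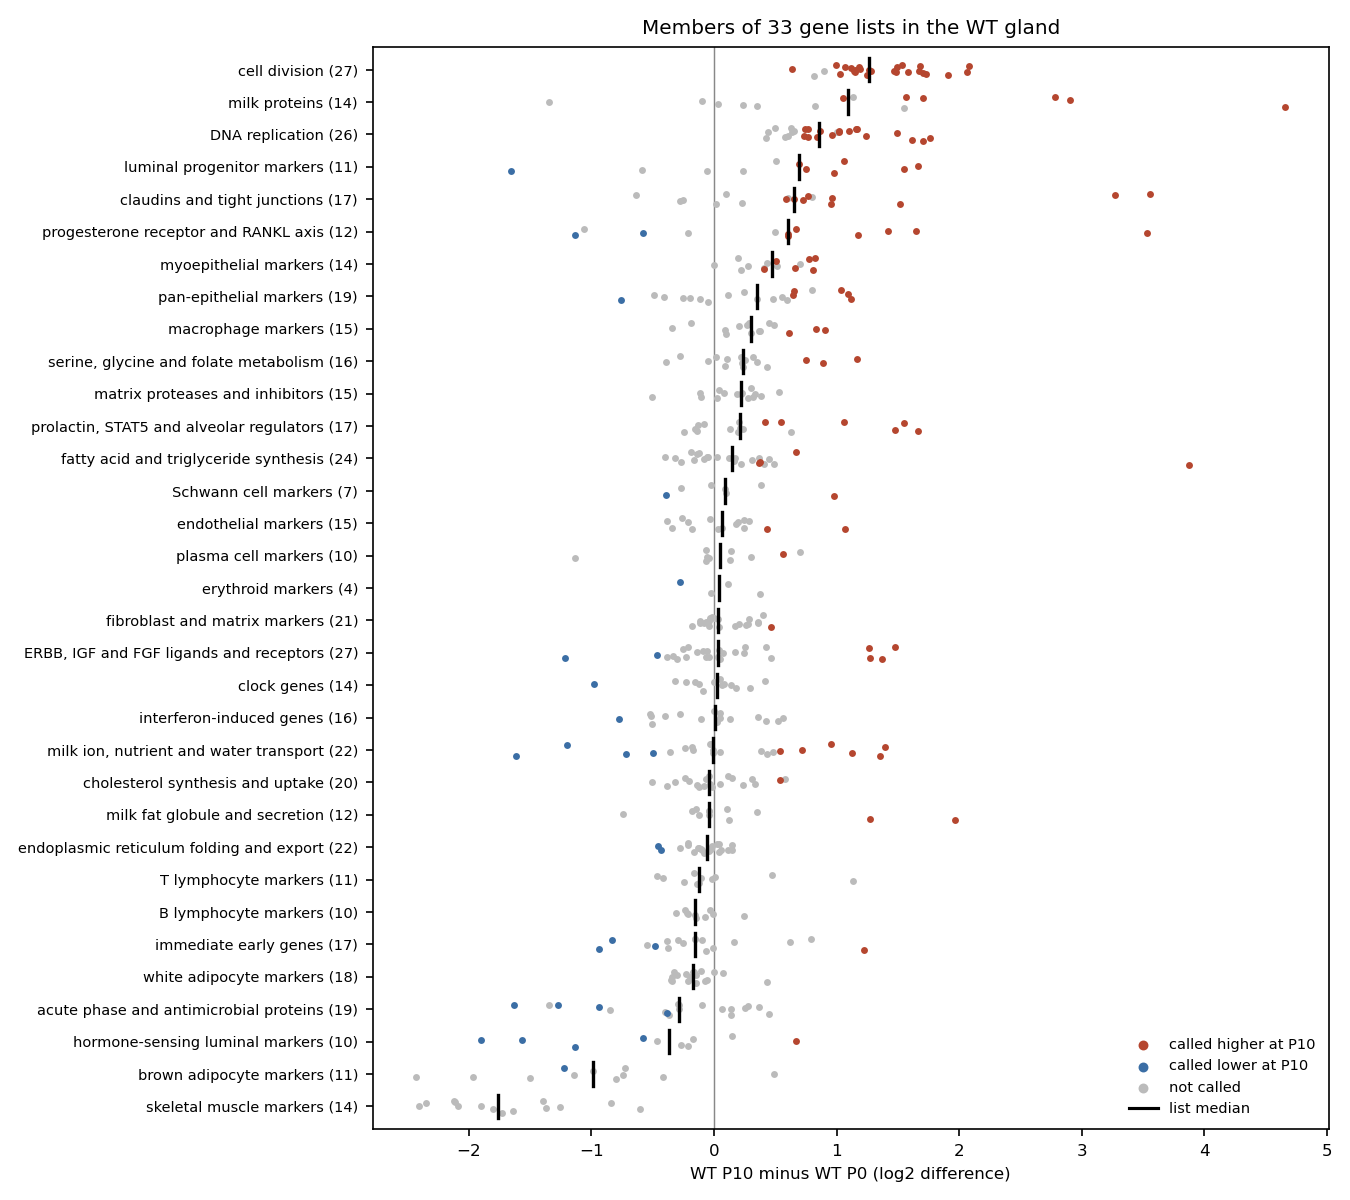
Differences of P10 minus P0 (log2, horizontal axis) for each tested gene of 33 lists (rows, with the number tested), coloured by the call, with a black bar at each list's median. Cell division (median 1.26), milk proteins (1.10) and DNA replication (0.86) lie farthest to the right, and the grey points of skeletal muscle markers (-1.77) farthest to the left.

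Markers of the epithelium as a whole differed less than these lists. Of 19 pan-epithelial genes 5 rose and 1 fell (median 0.35). Prss8, a membrane serine protease, read 9.20, 10.01 and 10.29 at P10 and 8.22, 9.46, 8.56 and 8.73 at P0 (1.09 ± 0.25; adjusted p = 0.00273), and the sorting adaptor gene Ap1m2 rose by 1.12 ± 0.27 (adjusted p = 0.00468), each with P0 replicate 2 inside the range of P10. Epcam (0.11), Krt8 and Krt18 (-0.41, adjusted p = 0.12) did not pass the test. The count of rises was 10 without P0 replicate 2, 8 without P10 replicate 1 and 3 without P10 replicate 3, and no gene of the list held in the 7 arrays alone.

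Among luminal progenitor markers 6 of 11 rose and 1 fell (median 0.70), with Ehf and Elf5 first. The transcription cofactor gene Lmo4 rose by 1.06 ± 0.20 (adjusted p = 0.000533) and Sox10, a progenitor transcription factor, by 0.98 ± 0.23 (adjusted p = 0.00357), neither with an overlap between the groups. Tspan8, a tetraspanin, was lower, at 4.35, 4.67 and 4.53 at P10, against 5.40, 6.64, 6.11 and 6.54 at P0 (-1.66 ± 0.38; adjusted p = 0.00302), with all P10 values below the filter level of 4.96, so that this difference too may be understated. Among 14 myoepithelial markers 6 rose and none fell (median 0.47). Jag2, a Notch ligand, read 8.65, 8.86 and 8.83 at P10 and 7.82, 8.39, 7.91 and 7.74 at P0 (0.81 ± 0.16; adjusted p = 0.00112), and smooth muscle actin, Acta2, rose by 0.41 ± 0.10 (adjusted p = 0.00685). The basal keratin genes Krt5 (0.28) and Krt14 (0.71, adjusted p = 0.053) did not pass the test. The myoepithelial count was 2 without P10 replicate 3 and 9 without P0 replicate 2 or P10 replicate 1. Tspan8 and Jag2 held in the 7 arrays alone.

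Of 17 cell junction genes 9 rose and none fell (median 0.65), and with the pan-epithelial score as a covariate 10 were higher and 1 lower (median 0.36). Beside the connexins these included Tjp3, a tight junction scaffold, which read 8.95, 9.51 and 9.76 at P10 and 7.42, 8.60, 7.35 and 8.16 at P0 (1.52 ± 0.24; adjusted p = 8.84e-05), the barrier protein occludin, Ocln (0.96 ± 0.21; adjusted p = 0.00251), and Cldn1, a sealing claudin (0.95 ± 0.25; adjusted p = 0.00829). P0 replicate 2 lay inside the range of P10 for Ocln and Cldn1, and for Tjp3 the groups did not overlap. Without P10 replicate 2 or P10 replicate 3 the count was 6. Cldn3, Cldn4 and Cldn7 are entries of both this list and the pan-epithelial list, so that the covariate holds their own levels where measured. Cldn4 (-0.25) and the connexin gene Gja1 (-0.27) did not pass the test, and Gjb2 and Gjb6 held in the 7 arrays alone.

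Transporters of milk split both ways, with 6 of 22 higher and 4 lower (median -0.01). The nucleoside carrier gene Slc28a3 rose by 1.39 ± 0.32 (adjusted p = 0.00336), the amino acid carriers Slc6a14 by 1.13 ± 0.21 and Slc7a5 by 0.96 ± 0.24, and the zinc carrier Slc30a4 by 0.72 ± 0.15. Aqp5, a water channel, was lower, at 7.34, 7.48 and 7.71 at P10, against 8.60, 9.23, 9.51 and 9.17 at P0 (-1.62 ± 0.16; adjusted p = 1.78e-07). The iodide carrier gene Slc5a5 read 6.64, 6.68 and 6.97 at P10 and 7.79, 8.05, 8.50 and 7.52 at P0 (-1.20 ± 0.21; adjusted p = 0.000301). The sodium, potassium and chloride cotransporter gene Slc12a2, a marker of ductal cells, read 9.76, 9.93 and 9.85 at P10 and 10.75, 10.63, 10.46 and 10.41 at P0 (-0.72 ± 0.14; adjusted p = 0.000972). These 3 falls had no overlap between groups and held in the 7 arrays alone, while none of the 6 rises did.

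Antimicrobial and acute phase genes were lower or not different, 4 of 19 lower and none higher (median -0.29). Wfdc2, a secreted protease inhibitor, read 6.93, 6.87 and 6.69 at P10 and 7.83, 9.26, 8.33 and 8.41 at P0 (-1.63 ± 0.23; adjusted p = 2.79e-05). Sprr1a, a cornified envelope protein, was lower by 1.27 ± 0.30 (adjusted p = 0.00367) and haptoglobin, Hp, by 0.93 ± 0.22 (adjusted p = 0.00438). All 3 had groups that did not overlap and held in the 7 arrays alone.

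Outside the epithelium the share of called markers differed by list, beside 11.7% of all genes higher and 9.71% lower. The endothelial count of rises was near that share of higher genes. None of 18 white adipocyte markers was called by limma (2 at an unadjusted p below 0.05, beside 36.6% of all genes; median -0.17, beside -0.02 over all tested genes), and the score of the list was 0.45, 0.21 and 0.12 at P10 and 0.56, 0.28, 0.42 and 0.36 at P0. Macrophage markers had 3 of 15 higher and none lower (median 0.31, between 0.0082 without P0 replicate 2 and 0.54 without P0 replicate 3). The third call, that of the engulfment receptor gene Mertk (0.61, adjusted p = 0.0339), was lost without P0 replicate 2 or 4 or any 1 of the P10 arrays (highest adjusted p = 0.125), and then 2 were higher. Cx3cr1, the fractalkine receptor, read 7.89, 8.13 and 8.25 at P10 and 7.18, 7.15, 7.29 and 7.42 at P0 (0.83 ± 0.13; adjusted p = 9e-05), and Aif1, the macrophage protein IBA1, rose by 0.90 ± 0.18 (adjusted p = 0.001). Both had groups that did not overlap and held in the 7 arrays alone, while the macrophage genes Adgre1 (0.31) and Csf1r (0.37) did not pass the test. Of 15 endothelial markers 2 rose, with Cldn5, the claudin of vessel walls, at 11.17, 10.81 and 10.91 at P10 and 9.59, 10.52, 9.75 and 9.72 at P0 (1.07 ± 0.26; adjusted p = 0.00526). The second, the vessel gene Egfl7 (0.43, adjusted p = 0.0185), lost its call without P0 replicate 1 or 4 or P10 replicate 1 or 2 (highest adjusted p = 0.105). None of the 15 was lower with all arrays, 1 was without P0 replicate 1 or 2, and 2 were without P0 replicate 4. Of 21 fibroblast and matrix markers 1 rose, the pericyte receptor gene Pdgfrb (0.47 ± 0.11; adjusted p = 0.00333). In limma none of the 10 B lymphocyte markers (0 at an unadjusted p below 0.05), the 11 T lymphocyte markers (1) or the 14 skeletal muscle markers (4) was called. The median of the muscle markers was -1.77 with all arrays and -0.40 without P0 replicate 4.

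The other WT stages place P10 in the course of pregnancy. These stages are compared with the same P0 arrays, so that only levels are set side by side. Ido1 averaged 9.29 ± 1.82 in nulliparous glands (P0), and in pregnancy 4.73 ± 0.17 on day 3, 4.75 ± 0.09 on day 7, 4.75 ± 0.25 on day 10 and 4.69 ± 0.12 on day 15 (log2, SD), a level reached by P3. Bub1 averaged 5.98 ± 0.93, 8.70 ± 0.60, 8.32 ± 0.24, 8.06 ± 0.40 and 7.47 ± 0.18 over the same stages. Its highest mean was at P3, and the P10 and P7 means differed by -0.25 (adjusted p = 0.907). Igf2 averaged 7.53 ± 0.16, 6.69 ± 0.28, 8.44 ± 0.32, 8.90 ± 0.15 and 7.50 ± 0.21, highest at P10 and lower at P15 by 1.41 ± 0.23 (adjusted p = 2.75e-05). Wap averaged 7.52 ± 0.95, 7.22 ± 0.09, 8.59 ± 1.55, 10.30 ± 1.07 and 13.34 ± 0.15, and Foxa1 averaged 9.68 ± 0.46, 9.48 ± 0.16, 8.38 ± 0.17, 7.78 ± 0.13 and 6.63 ± 0.14. Both genes went on in the same direction between P10 and P15.

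**Figure D4:**
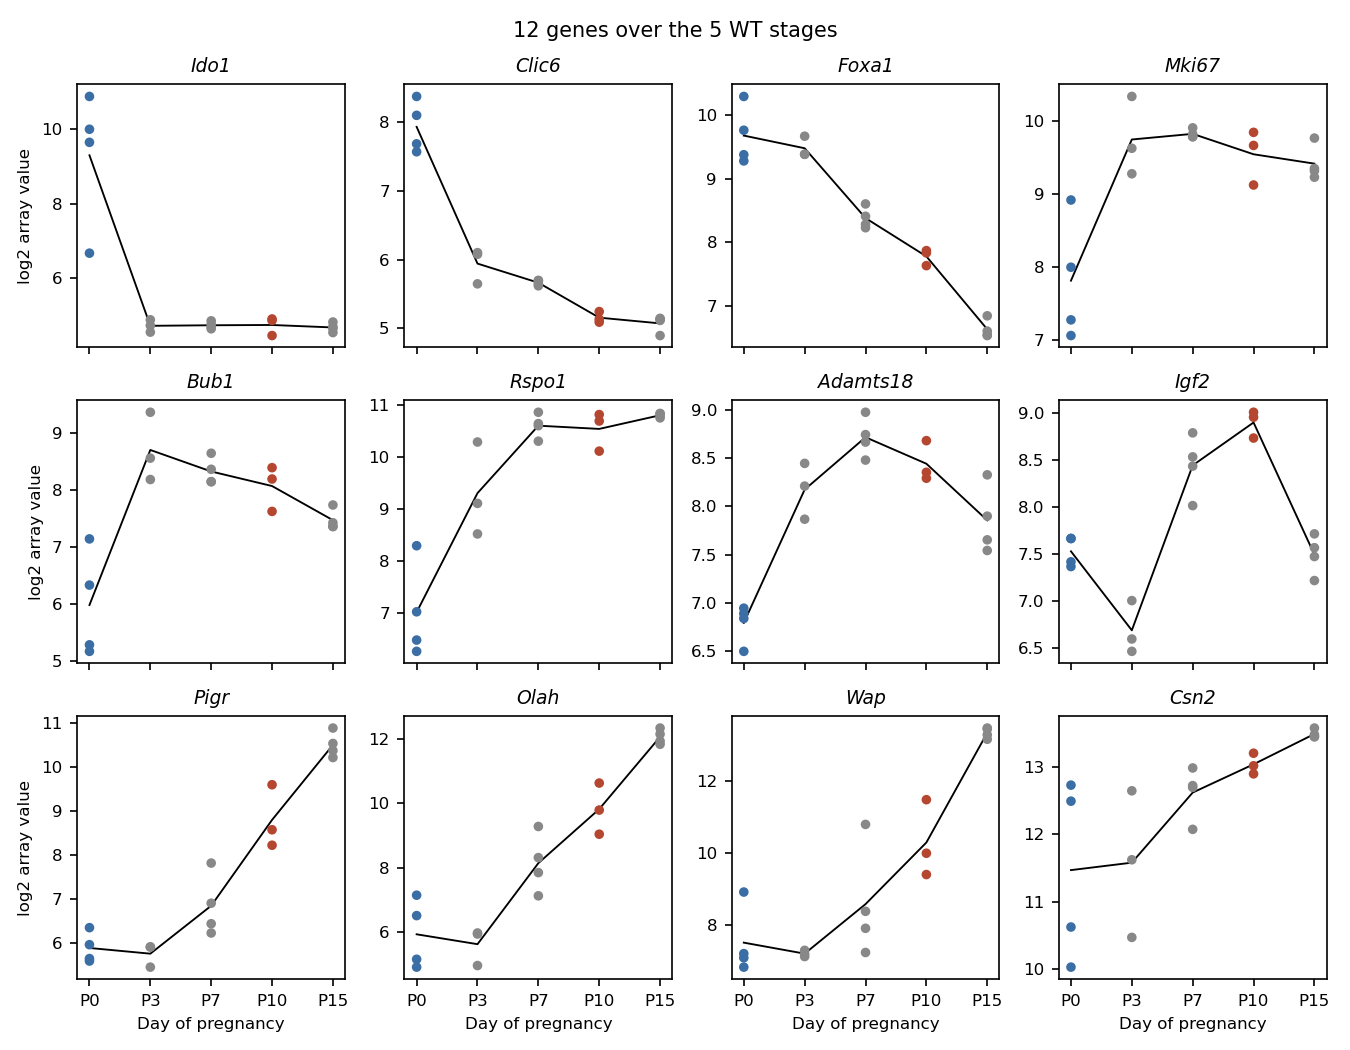
Levels (log2 array value, each panel with its own axis) of 12 genes in every WT array by stage, P0 to P15, with the line through the stage means. P0 arrays are blue, P10 arrays red and the others grey; Ido1 is at 4.73 by P3, Bub1 is highest at P3 (8.70), Igf2 is highest at P10 (8.90) and Wap is highest at P15 (13.34).

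Between P10 and P7, 35 of 16865 genes were called (0.208%), 21 higher (0.125%) and 14 lower (0.083%). The count was 251 with the arrays of the 2 groups alone, 1731 with array weights and 101 with muscle and lymphocyte scores as covariates. The lowest adjusted p was that of Hmox1, haem oxygenase, which averaged 10.32 ± 0.38 at P10 and 8.68 ± 0.04 at P7 (1.64 ± 0.19; adjusted p = 3.36e-05) and 8.14 ± 0.18 at P15. Svs2, a seminal vesicle secretory protein in the male, averaged 4.95 ± 0.19 at P10 and 6.43 ± 0.10 at P7 (-1.47 ± 0.20; adjusted p = 0.000394). Pigr averaged 8.80 ± 0.71 at P10 and 6.85 ± 0.70 at P7 (1.95 ± 0.35; adjusted p = 0.0142), a call lost without P7 replicate 2 (1.81, adjusted p = 0.0593), P7 replicate 3 (1.74, adjusted p = 0.0789) or P10 replicate 3 (1.55, adjusted p = 0.129). The count itself was 4 without P7 replicate 3, 5 without P10 replicate 3, 6 without P7 replicate 2, 7 without P7 replicate 4 and between 24 and 26 without any of the others.

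Between P15 and P10 a large part of the array differed, 6679 genes (39.6%), 2885 higher (17.1%) and 3794 lower (22.5%) at P15. This split depended on the scaling of the arrays: with the arrays centred on their medians 1116 were higher and 6884 lower, and after a further quantile normalisation 2052 were higher and 5187 lower. Of the 14 milk proteins 9 were higher at P15 than at P10 and none lower, against 1 higher and none lower at P10 against P7. Cel averaged 11.61 ± 0.28 at P15 and 8.30 ± 0.77 at P10 (3.31 ± 0.60; adjusted p = 7.95e-05), Gldc, of the glycine cleavage system, 10.75 ± 0.25 at P15 and 7.53 ± 0.42 at P10 (3.22 ± 0.19; adjusted p = 9.38e-13), and Wap differed by 3.04 ± 0.70 (adjusted p = 0.00103). Pck1, which supplies glycerol for triglycerides in fat cells, averaged 9.34 ± 1.34 at P15 and 12.28 ± 0.19 at P10 (-2.94 ± 0.54; adjusted p = 9.16e-05). Olah and Gjb6, among the largest rises at P10, were higher again at P15, by 2.24 ± 0.57 (adjusted p = 0.00248) and 1.89 ± 0.48 (adjusted p = 0.00223).

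The same comparison can be made in the KO arrays, 3 at P10 and 4 at P0, which share no array with the WT ones. There 5172 genes were called (30.7%), 2422 higher (14.4%) and 2750 lower (16.3%) at P10. Of the 1965 genes higher in WT, 79.6% also had a positive difference in KO, beside 42.5% of all tested genes, and 698 were called higher there (35.5% of the WT list and 28.8% of the KO list). Of the 1638 genes lower in WT, 83.3% had a negative difference in KO, beside 57.5% of all, and 410 were called lower there (25% of the WT list and 14.9% of the KO list). Glycam1 differed by 4.66 in WT and 5.75 in KO, Olah by 3.87 in WT and 3.70 in KO, Ido1 by -4.54 in WT and -5.81 in KO, and Foxa1 by -1.90 in WT and -2.79 in KO.

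KO P10 replicates 2 and 3 stood apart, with B lymphocyte scores of 3.98 and 3.85 and T lymphocyte scores of 3.30 and 3.35, where the third KO P10 array had -0.29 and 0.25 and the 3 WT P10 arrays lay between -0.36 and -0.11. The values above use all arrays. The arrays in doubt are 7 of 37. Each has a muscle or joint B and T lymphocyte score more than 1 above the median array, or a Ptpn1 level against the label. In the fit without the arrays in doubt 1 KO P10 array is left, which is assumed to vary like the other groups. In that fit 504 genes were called for the KO change, and 2597 for WT. Of the 1513 genes then higher in WT 88.9% had a positive difference in KO, beside 47.6% of all, and of the 1084 lower in WT 89% had a negative one, beside 52.4%. The KO differences were then 5.75 for Glycam1, 4.09 for Olah, -5.92 for Ido1 and -2.68 for Foxa1.

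Cell division had 25 of 27 genes called in WT and none in KO at an adjusted p below 0.05 in limma, and none in KO at an unadjusted p below 0.05, where 40.7% of all genes had one. The median difference was 1.26 in WT and 0.39 in KO, and without the arrays in doubt 1.29 in WT and 0.61 in KO. KO P0 replicate 4, which is not among the arrays in doubt, had a cell division score of 0.87. The other KO P0 arrays had -0.82, -0.64 and -0.24, and the KO P10 arrays 0.34, 0.11 and 0.04. How far that P0 array lowers the KO median was not tested. The difference between the genotypes, tested gene by gene, was not called for any of the 27 (7 at an unadjusted p below 0.05, beside 26.3% of all genes, and 0 without the arrays in doubt), so that cell division was not shown to differ between WT and KO. Over all genes that test called 1787 (10.6%), 999 with the higher value in WT (5.92%) and 788 with the lower (4.67%), and without the arrays in doubt none, with 1174 at an unadjusted p below 0.05. Adamts18 differed by 1.64 in WT and -0.03 in KO, with KO arrays at 7.48 to 7.84 at P10 and 7.14 to 8.13 at P0, so that the KO groups overlapped. Its genotype difference was 1.67 ± 0.27 with all arrays (adjusted p = 0.000764) and 1.48 ± 0.36 without those in doubt (adjusted p = 0.333). For Id4 it was 1.61 ± 0.36 (adjusted p = 0.00586) and 1.31 ± 0.46 (adjusted p = 0.512). Of the called genes the largest genotype difference was that of the B-cell receptor component gene Cd79a, which differed by -4.32 with all arrays and by -1.15 without those in doubt.

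**Figure D5:**
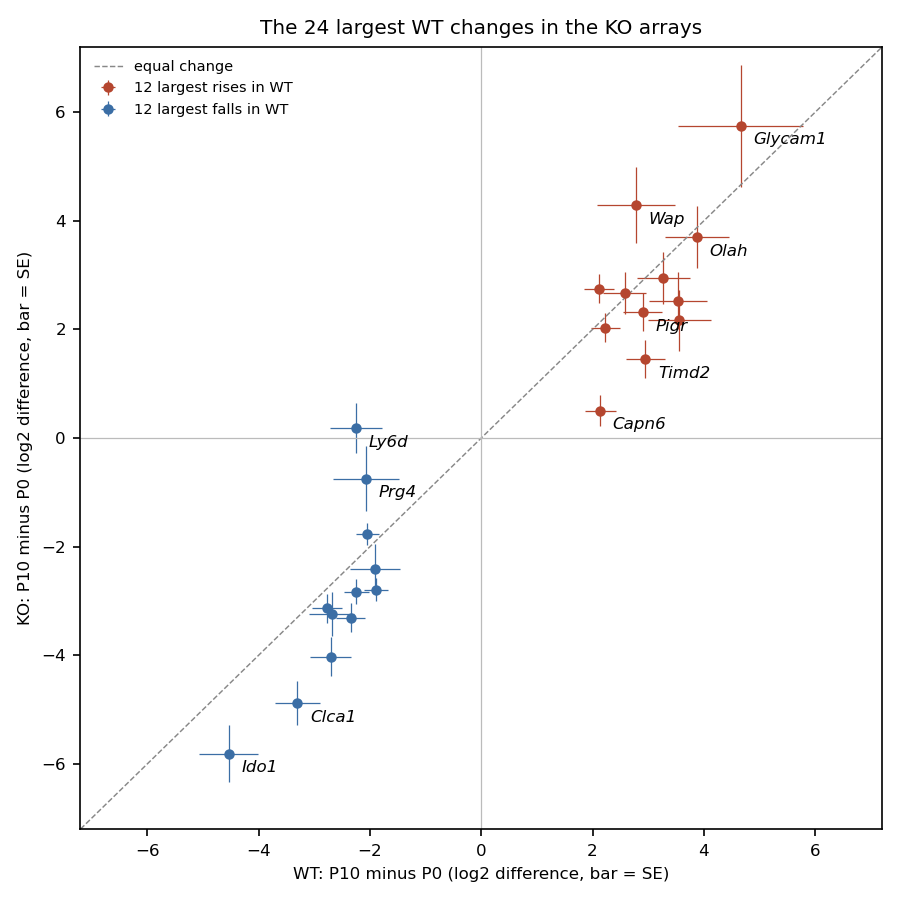
P10 minus P0 differences (log2, bars are SE) in WT (horizontal axis) and KO (vertical axis) for the 24 largest WT changes, with the dashed line marking equal change. The points of Ido1 (-4.54 in WT, -5.81 in KO) and Glycam1 (4.66 in WT, 5.75 in KO) lie near the line's ends, and Capn6 (2.14 in WT, 0.51 in KO) and Ly6d (-2.25 in WT, 0.19 in KO) lie away from it, where without the arrays in doubt the KO change was 0.96 for Capn6 and -1.80 for Ly6d.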

How the data were processed

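Levels are log2 values of Affymetrix gene arrays in the series' table of processed values, as deposited. Per the submitters' processing notes the R package affy was used. The sources used here do not give the background correction, summarisation or normalisation, and the log2 scale was read from the range of the deposited values, 2.10 to 13.7. The table has no depth, and the number of arrays limits the precision. Of 34760 probe sets, 21640 had 1 gene symbol in the platform annotation, 1321 had several and 11799 had none, and only the first kind was used. Where a gene had over 1 probe set (954 of 19937 genes), the one with the highest mean was kept. Of the genes, 19855 matched a RefSeq gene. Genes were tested where the level exceeded 4.96, the 25th percentile of all values, in at least 3 arrays, which left 16865 genes and removed 3072.

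Differences of group means were tested with limma 3.58.1 (R 4.3.3; lmFit and eBayes, two-sided) on all 37 arrays with a mean for each of the 10 groups, which share 1 estimate of spread, and p-values were adjusted by Benjamini-Hochberg over all tested genes. A gene was called at an adjusted p below 0.05. The fit was also run on simulated data for the P10 and P0 comparison of 16865 genes. Each gene had its mean over all 37 arrays in every group and 1 spread pooled over the groups. Normal noise was drawn independently for each gene and array, without deviations shared by the genes of an array. A small part of the genes was changed, in the WT P10 group alone. There 92% of genes changed by 1 on the log2 scale and 70% of those changed by 0.5 were called. Of the calls there, 6.36% were false. Whether these shares hold for the measured arrays, where the number of calls depended on single arrays, was not tested. Levels and differences are given to 2 decimals on the log2 scale, with SE for differences and SD for levels.

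The 33 gene lists (549 different genes, 508 measured and 506 tested) and the comparison itself were chosen with earlier results of these data known. They are described by counts and medians, with no test of a list. Named genes are Ptpn1, the 12 largest rises and 12 largest falls among called genes whose groups do not overlap, up to 4 called members of each list by size (up to 2 by p where none was called), the milk protein, cell division and DNA replication lists whole, and up to 8 called genes of the other comparisons. Predicted genes were left out. Other list members named for their role (such as Wnt4, Fgfr2, Tnfrsf11a, Stat5a, Slc12a2, Sox10 and members that did not pass the test) were picked after their values were seen. The main model did not pair arrays by replicate number, as the labels do not say what the numbers mean. Same-numbered WT P10 and P0 arrays deviated together with correlations of 0.49, 0.22 and -0.04. The pairs with unlike numbers lay between -0.44 and 0.315. For P10 replicates 1 and 2 the same-numbered P0 array had the highest correlation, so that a pairing is not excluded. The alternatives were the filter, the choice of probe set, a further quantile normalisation, centring of arrays, the variance prior, array weights, the arrays fitted, the replicate block, covariates, a fold minimum and leaving out each array. The pan-epithelial covariate was added after the data were seen.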

Additional observations from a re-analysis of the deposited data

Results flagged for a closer look

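In 17 of 208 groups of 4 or more arrays that were screened (named genes and list scores by WT group), 1 array lay apart from the others of its group by Dixon's gap criterion, which chance alone meets in about 1 in 20 groups. WT P0 replicate 2 accounted for 10 of them. It was high for Tyms (8.28, others 7.38 to 7.52), Hp (11.46, others near 11.1), Sdc1 (9.15, others 8.64 to 8.70), Kif23 (7.53, others 6.84 to 6.88), Mcm7 (9.55, others 8.17 to 8.39), Lig1 (8.26, others 7.30 to 7.42) and Uhrf1 (8.13, others 6.61 to 6.68), and its DNA replication score was 0.036 where the others lay between -0.98 and -0.81. It was low for Ccl28 (5.61, others 6.11 to 6.12) and in its fatty acid and triglyceride score (-0.81, others 0.07 to 0.21).

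WT P0 replicate 4 was high for Rgs16 (8.06, others 7.13 to 7.25), for the muscle gene Pvalb (11.7, others 5.44 to 6.24) and in its muscle score (4.80, others -0.13 to 0.33), and low for Cdcp3 (6.52, others 8.86 to 9.01). WT P0 replicate 3 had a T lymphocyte score of 0.88 (others -0.64 to -0.41), WT P0 replicate 1 had Hemgn at 5.78 (others at 5.68), and WT P15 replicate 3 had Lao1 at 11.9 (others near 12).

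The P10 minus P0 change differed between WT and KO, by the limma test of that difference, for 11 named genes. The difference was negative, with the lower value in WT, for Cd79a (-4.32), Ms4a1 (-4.21), Dapl1 (-3.73), Cr2 (-3.72), Il7r (-3.64), Ighg3 (-3.62), Ccr7 (-3.60), Fcer2a (-3.49) and Ly6d (-2.43). It was positive for Capn6 (1.63) and Timd2 (1.495). None of the 11 was called without the arrays in doubt, where 1 KO P10 array is left. The differences were then -2.68 for Ighg3, -1.15 for Cd79a, -0.97 for Ccr7, -0.92 for Il7r, -0.76 for Dapl1, -0.13 for Ms4a1, -0.03 for Ly6d, 0.20 for Cr2 and 0.21 for Fcer2a, and 1.28 for Capn6 and 1.25 for Timd2.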

How the results depend on the processing

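The count of WT genes called for P10 against P0 (3603) was 7233 with array weights, 447 with the 7 arrays alone, 397 with a minimum absolute log2 difference of 1 and 1610 to 5036 without 1 array. With the arrays centred on their medians 3325 were called, 2065 higher and 1260 lower. For the KO change (5172) the counts were 8408 over all probe sets, 7933 with centring (1492 higher, 6441 lower), 7992 with weights, 1827 with its 7 arrays alone, 504 without the arrays in doubt, 619 with muscle and lymphocyte scores as covariates, 756 with the fold minimum and 3135 to 6218 without 1 array, and quantile normalisation gave 2166 higher and 4362 lower. For the WT minus KO difference (1787) they were 3483 with centring (3010 higher, 473 lower), 4897 with weights, 24 with the arrays compared alone, 0 without the arrays in doubt (limma, 1174 at an unadjusted p below 0.05), 0 with the covariates (1311 unadjusted), 484 with the fold minimum and 506 to 3574 without 1 array, and quantile normalisation gave 1072 and 582. For P10 against P7 (35) they were 22 with quantile normalisation, 96 with centring (80 higher, 16 lower), 1731 with weights, 251 with the arrays compared alone, 59 without the arrays in doubt, 101 with the covariates, 7 with the fold minimum and 4 to 26 without 1 array. For P15 against P10 (6679) they were 12816 over all probe sets, 793 with the fold minimum and 4819 to 6629 without 1 array. The causes were not tested.

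With the replicate block, although the numbers share no stated origin and same-numbered arrays did not all deviate together, limma called 179 genes for WT P10 against P0 (174 of them among the 3603), 744 for KO, 0 for the WT minus KO difference (2821 at an unadjusted p below 0.05), 0 for P10 against P7 (2003 unadjusted) and 5360 for P15 against P10. Of the 129 named genes called for WT P10 against P0, 93 lost the call with the block, 85 with the 7 arrays alone, 58 in at least 1 fit without 1 array and 31 with the pan-epithelial covariate.

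The difference of Ptpn1 (0.00) became negative with quantile normalisation (-0.073), weights (-0.135), the block (-0.056), without the arrays in doubt (-0.056) and with the covariates (-0.051), and lay between -0.078 (without P10 replicate 1) and 0.094 (without P0 replicate 3) over the fits without 1 array, negative also without P0 replicate 1, 2 or 4. That of Trf (0.04) became negative with the pan-epithelial covariate (-0.037) and lay between -0.048 (without P10 replicate 3) and 0.117 (without P10 replicate 1), negative also without P0 replicate 1. The genotype difference became positive without the arrays in doubt for Cr2 (0.20) and Fcer2a (0.21), and with the covariates for Ms4a1 (0.60), Cr2 (0.62) and Fcer2a (0.54).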

Other observations

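Among 17 immediate early genes 1 was higher and 3 were lower at P10 (median -0.16). Myc, the growth-promoting transcription factor, read 10.54, 10.92 and 11.18 at P10 and 9.26, 10.47, 9.60 and 9.30 at P0 (1.22 ± 0.21; adjusted p = 0.000315, limma). Fos read 6.43, 6.66 and 6.64 at P10, against 6.79, 8.01, 7.42 and 7.43 at P0 (-0.83 ± 0.17; adjusted p = 0.00125), and Dusp1, a phosphatase of MAP kinases, read 9.97, 10.23 and 9.32 at P10, against 11.03, 10.65, 10.75 and 10.70 at P0 (-0.94 ± 0.20; adjusted p = 0.00212). None of these 3 had overlapping groups. Each was called in every fit that left out 1 array and in none with the 7 arrays alone. The third gene that fell, Zfp36 (-0.48), kept its call without P10 replicate 2 alone (highest adjusted p = 0.242). Of 14 clock genes 1 was lower, the repressor gene Bhlhe41, at 8.41, 8.63 and 8.14 at P10, against 9.23, 9.93, 9.08 and 9.23 at P0 (-0.98 ± 0.21; adjusted p = 0.0022). Of 16 genes of serine, glycine and folate metabolism 3 were higher and none lower (median 0.24). Shmt1, which moves a carbon unit from serine to folate, read 8.82, 9.01 and 9.13 at P10 and 8.25, 8.43, 7.90 and 8.36 at P0 (0.75 ± 0.15; adjusted p = 0.00128). Gldc differed by 0.89 ± 0.19 (adjusted p = 0.00183) and Tyms, thymidylate synthase, by 1.17, a call lost without P10 replicate 3 (adjusted p = 0.0609).

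In 5 further lists the called genes were fragile or single. Of 11 brown adipocyte markers 1 was lower, Dio2 (-1.22, adjusted p = 0.0425), which kept its call without P0 replicate 2 alone (highest adjusted p = 0.147). The list's score was 0.58, -0.22 and -1.03 in the P10 arrays and 1.83, -1.13, 1.05 and 1.51 in the P0 arrays, where replicate 2 stood below the others. Its median difference was -0.98 with all arrays, -1.41 with 7 markers lower without P0 replicate 2, and -0.48 with none lower without P10 replicate 3, and Ucp1 differed by -2.43 without passing the test (adjusted p = 0.164). Of 16 interferon-induced genes Ifi27l2a was lower (-0.77, adjusted p = 0.0295), a call lost without P0 replicate 1 or 4 or P10 replicate 2 or 3 (highest adjusted p = 0.127). Of 10 plasma cell markers Sdc1 was higher (0.56, adjusted p = 0.0302), which kept its call without P0 replicate 2 alone (highest adjusted p = 0.0775). Of 7 Schwann cell markers Sox10, also a luminal progenitor marker, was higher, and Ncmap was lower (-0.39, adjusted p = 0.0231), a call lost without P0 replicate 2 or 3 or P10 replicate 1 or 2 (highest adjusted p = 0.0867). Of 4 erythroid markers Hemgn was lower (-0.28, adjusted p = 0.0376), a call lost without P0 replicate 1, 3 or 4 or P10 replicate 1 or 2 (highest adjusted p = 0.158). None of 15 genes of matrix proteases and their inhibitors was called by limma (1 at an unadjusted p below 0.05).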
